A study of Saccharomyces cerevisiae with 6 samples.

Results

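The genes described here are 10 genes of the peroxiredoxin and thioredoxin system of budding yeast (Saccharomyces cerevisiae): the peroxiredoxins TSA1, TSA2, AHP1, DOT5 and PRX1, the thioredoxins TRX1 and TRX2, the thioredoxin reductase TRR1, the sulfiredoxin SRX1 and the peroxidase GPX2. The rule that chose them uses gene names alone, as the probe sets whose gene symbol in the platform annotation is one of these, although earlier results of these data were known when the names were picked. Each of the 10 genes has 1 probe set, so the members are 10 of the 5656 genes named by a probe set with 1 symbol and 10 of the 9335 probe sets in the table. All 10 were among the 6931 probe sets tested after control, empty and dim probe sets were left out, and all 10 had a value on each of the 6 arrays. Total RNA came from 3 samples of a strain that carries the K91A allele of histone H4, in which a lysine of the folded core of the histone is replaced by alanine, and from 3 samples of a strain labelled WT for histone H4. Both strains were grown in YPD, a rich glucose medium, and collected during exponential growth. No oxidant is named in the labels. The labels do not give the strain background, the markers of either strain or whether the replicates were grown separately, so the p-values describe the spread of these samples, which may be technical.

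Peroxiredoxins are abundant enzymes that reduce hydrogen peroxide and organic peroxides through a reactive cysteine. The oxidised enzyme is returned to work by a thioredoxin, the thioredoxin by its reductase, and the reductase by NADPH. When peroxide is high the reactive cysteine of Tsa1 can be oxidised further to a sulfinic acid, and sulfiredoxin, an ATP-dependent enzyme, reverses that step. In yeast many of these genes, TRX2, TRR1, TSA1, AHP1, GPX2 and SRX1 among them, are known targets of the transcription factor Yap1, often together with Skn7.

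A few facts of the arrays touch all values. Median intensity was 745 on K91A 3 and between 1828 and 3116.5 on the other 5 arrays. Quantile-normalized log2 values correlated between arrays at 0.918 to 0.976 within WT and at 0.764 to 0.870 within K91A. Between a K91A and a WT array the correlation was 0.644 to 0.779. K91A 3 was grouped by its title, while its description calls it WT. RNA quality and labelling can be read from the 5' over 3' signal of actin, whose mean was 0.861 ± 0.017 in K91A against 0.196 ± 0.146 in WT (SD over 3 arrays each, exact two-sided permutation p = 0.1, as small as this design can reach). On single arrays the ratio was 0.865, 0.843 and 0.877 on K91A 1, 2 and 3. On WT 1, 2 and 3 it was 0.110, 0.114 and 0.365. The part of this ratio in the results below was not tested, nor was which label of K91A 3 is right. Among 5013 protein-coding genes the log2 difference rose with coding length (Spearman's rho 0.21 across genes, which are not independent replicates), and the members are short, 312 to 960 nt with a median of 561 nt against 1254 nt for those genes. Levels below are log2(intensity + 16) after quantile normalization, differences are K91A minus WT on that scale, and an adjusted p is that of limma with Benjamini-Hochberg adjustment over all 6931 probe sets. The direction of a difference is therefore relative to the bulk of transcripts. The median difference of all probe sets was -0.07, and it was -0.82 on the values as deposited, where the arrays keep their own brightness.

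Between the strains, 1 of the 10 genes passed the test, and that gene was SRX1, which was about 4-fold higher in K91A. No member passed as lower. At an unadjusted p under 0.05 there were 3 members, SRX1, PRX1 and GPX2. Over all probe sets 15.4% were called higher and 14.8% lower, and 30.2% in either direction, so 1 call in 10 is not more than the background. The members' median difference was 0.14, with 6 values above 0 and 4 below. The groups did not overlap for 5 of the 10 members, where 51.1% of all probe sets showed this. They lay apart upwards for 4 members (SRX1, PRX1, TSA2 and TSA1, background 23.7%) and downwards for 1 (GPX2, background 27.5%). Among the 1590 protein-coding genes within the members' range of coding length, 8.99% were called higher and 20.5% lower, the median difference was -0.28, and the groups lay apart upwards for 14.4% and downwards for 37.4%.

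**Figure D1:**
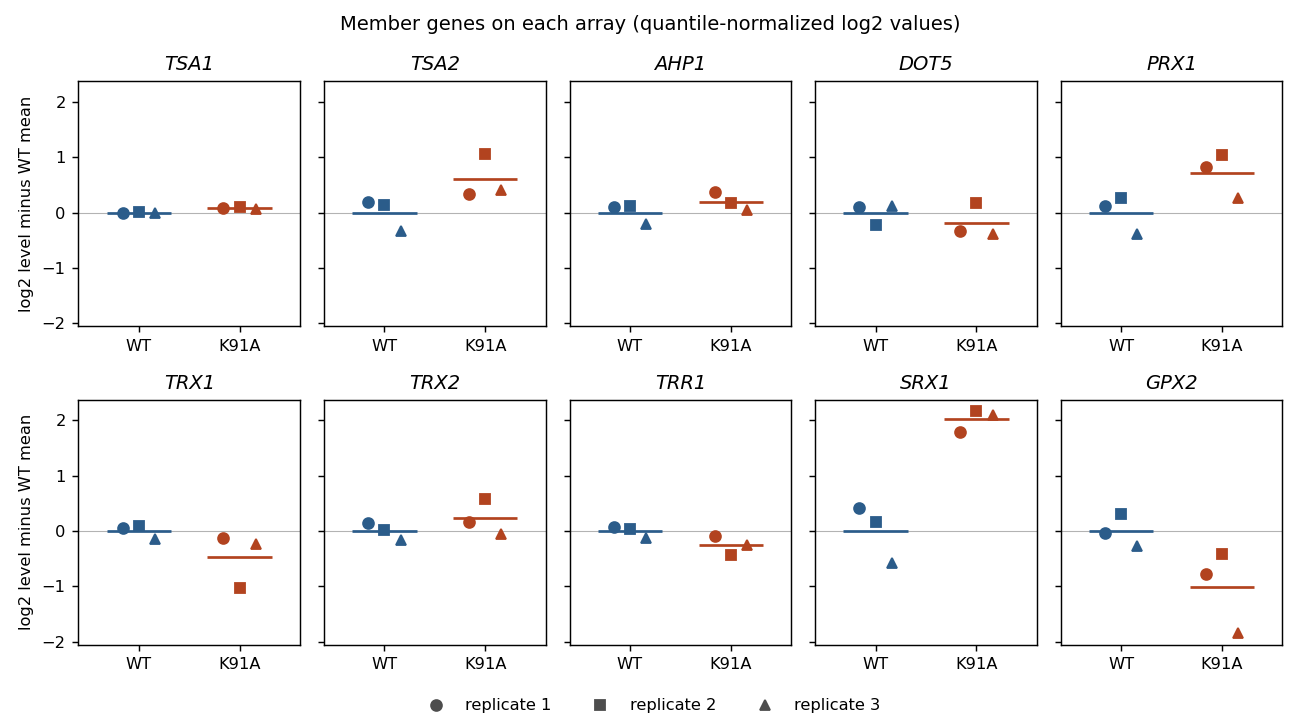
Level of each member on each array, as log2(intensity + 16) after quantile normalization minus the mean of the 3 WT arrays, with WT in blue, K91A in red, a symbol for each replicate and a line at the mean of each group. SRX1 stands about 2 units higher on all 3 K91A arrays, TSA1 hardly moves, and GPX2 is lowest on K91A 3.

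SRX1, the sulfiredoxin (probe set 10653_at), had log2 levels of 12.33, 12.72 and 12.64 on K91A 1, 2 and 3, and of 10.96, 10.71 and 9.97 on WT 1, 2 and 3. All K91A arrays were above all WT arrays by more than 1 unit. The difference was 2.02 (SE 0.29, 95% interval 1.33 to 2.70, adjusted p = 0.0042, n = 3 each), a fold of 4.05 with an interval of 2.52 to 6.52. The WT arrays varied more than the K91A arrays for this gene (SD 0.52 against 0.20). SRX1 lay at the 31.4 percentile of probe sets on WT 3, not far above the dimmest 25% that were left out, and at the 76.9 to 82.9 percentile on the K91A arrays. The call held without each array in turn, at 1.70 to 2.21. It ended on the values as deposited (1.28, adjusted p = 0.190), where K91A 3 is the dimmest array, and with K91A 3 counted as WT (1.46, adjusted p = 0.331), a setting that left 0 calls among all probe sets by limma and 1056 at an unadjusted p under 0.05.

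SRX1 was also set against the other members within each array. The offset between 2 probe sets has no meaning, but its change between strains does not depend on how arrays are scaled to each other. The deposited log2 value of SRX1 minus that of TSA1, its best-known substrate, was -2.67, -2.18 and -2.59 on K91A 1, 2 and 3. On WT 1, 2 and 3 it was -4.10, -4.53 and -5.21, so the groups lay apart and the mean changed by 2.13. The groups did not overlap for any of the 9 members set against SRX1, with changes from 1.46 (PRX1) to 3.07 (GPX2). The same held for 87.7% of all other probe sets tested when set against SRX1. All 9 pairs share SRX1, the member with a call, so they restate its shift and are not separate results. These values show unequal change within arrays and were not tested.

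**Figure D2:**
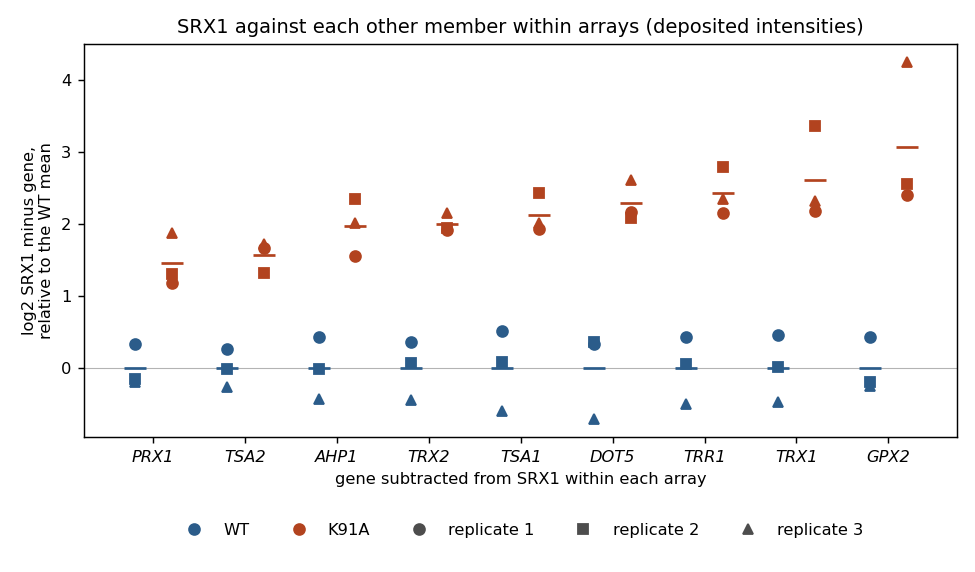
Deposited log2 value of SRX1 minus that of each other member within the same array, drawn relative to the WT mean of that pair, with WT in blue, K91A in red, a symbol for each replicate and a line at each group's mean. For all 9 genes every K91A point lies above every WT point.

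TSA1 and AHP1, which encode the most abundant cytosolic peroxiredoxins, differed little between strains, and neither passed the test. TSA1 (9682_at) was at 15.10, 15.11 and 15.09 on K91A 1, 2 and 3 and at 15.02, 15.04 and 15.01 on WT 1, 2 and 3. The K91A arrays were all above the WT arrays, but by less than 0.1, and the difference of 0.08 did not pass (95% interval -0.14 to 0.29, adjusted p = 0.540). TSA1 lay at the 99.4 to 99.6 percentile on all 6 arrays, and quantile normalization gives such ranks nearly the same value on every array, while its deposited intensity ran from 16372 on K91A 3 to 59649 on WT 2. AHP1 (10228_at), a peroxiredoxin that acts on organic peroxides, was at 15.34, 15.14 and 15.00 on K91A 1, 2 and 3 and at 15.06, 15.07 and 14.75 on WT 1, 2 and 3. The groups overlapped and the difference was 0.20 (95% interval -0.13 to 0.53, adjusted p = 0.315). The sign of both turned on the values as deposited (TSA1 -0.85, AHP1 -0.70), where the median of all probe sets was -0.82. Both signs also turned with median centring (-0.20 and -0.050).

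TSA2 and PRX1 had the next highest differences after SRX1, and neither passed the test. TSA2 (6012_at), the paralog of TSA1, was at 13.20, 13.92 and 13.27 on K91A 1, 2 and 3 and at 13.05, 12.99 and 12.53 on WT 1, 2 and 3. The groups did not overlap, with K91A 2 well above the rest, and the difference was 0.60 (SE 0.26, 95% interval -0.01 to 1.22, adjusted p = 0.117). Without K91A 2 it was 0.38. PRX1 (7432_at), the mitochondrial peroxiredoxin, was at 13.56, 13.79 and 13.01 on K91A 1, 2 and 3 and at 12.86, 13.00 and 12.36 on WT 1, 2 and 3. K91A 3 and WT 2 were almost level, and the difference was 0.72 (SE 0.27, 95% interval 0.07 to 1.36, adjusted p = 0.0867). PRX1 passed without K91A 3 (0.92, adjusted p = 0.0405). After removal of the trend on coding length from each array, PRX1 (0.91, adjusted p = 0.0326), TSA2 (0.86, adjusted p = 0.0293) and the thioredoxin TRX2 (0.53, adjusted p = 0.0480) all passed as higher, so that 4 members were called. In that setting 772 of 4736 protein-coding probe sets were called higher. On the values as deposited the differences of TSA2 and PRX1 were -0.29 and -0.18, where the median of all probe sets was -0.82.

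DOT5 (4115_at), a nuclear peroxiredoxin, was at 12.01, 12.52 and 11.97 on K91A 1, 2 and 3 and at 12.46, 12.12 and 12.47 on WT 1, 2 and 3. The groups were interleaved. The difference was -0.18 (95% interval -0.72 to 0.36, adjusted p = 0.569). It was -0.36 without K91A 2 and -0.080 without K91A 3, and between these without any other array.

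The cytosolic thioredoxins TRX1 and TRX2 pass electrons from the reductase to the peroxiredoxins and to other clients, and neither passed the test. TRX1 (10295_at) was at 14.10, 13.19 and 13.99 on K91A 1, 2 and 3 and at 14.28, 14.31 and 14.09 on WT 1, 2 and 3. K91A 2 stood 0.8 below the next array, K91A 1 lay within the WT range, and the difference was -0.46 (SE 0.25, 95% interval -1.06 to 0.13, adjusted p = 0.202). Without K91A 2 it was -0.19. TRX2 (4774_at) was at 14.76, 15.17 and 14.55 on K91A 1, 2 and 3 and at 14.74, 14.61 and 14.44 on WT 1, 2 and 3. Here K91A 2 was the highest array, the groups overlapped, and the difference was 0.23 (95% interval -0.20 to 0.66, adjusted p = 0.368), which was -0.73 as deposited and -0.082 with median centring. Without K91A 2 the TRX2 difference was 0.057, and with arrays weighted by quality 0.072. TRR1 (6139_at), the NADPH-dependent reductase of both thioredoxins, was at 14.01, 13.68 and 13.85 on K91A 1, 2 and 3 and at 14.18, 14.14 and 13.98 on WT 1, 2 and 3. K91A 1 overlapped WT 3, and the difference of -0.26 did not pass (95% interval -0.61 to 0.10, adjusted p = 0.231).

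GPX2 had the lowest difference of the 10. It encodes a homolog of glutathione peroxidases that in yeast is reduced by thioredoxin. GPX2 (7109_at) was at 11.15, 11.50 and 10.07 on K91A 1, 2 and 3 and at 11.88, 12.22 and 11.66 on WT 1, 2 and 3. The K91A arrays were all below the WT arrays, with K91A 3 more than 1 unit below the other K91A arrays. The difference was -1.01 (SE 0.38, 95% interval -1.92 to -0.11, adjusted p = 0.0858). It was -0.58 without K91A 3 (adjusted p = 0.127). It passed without K91A 2 (-1.34, adjusted p = 0.0418) and when arrays were weighted by their quality (-1.16, adjusted p = 0.0164).

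**Figure D3:**
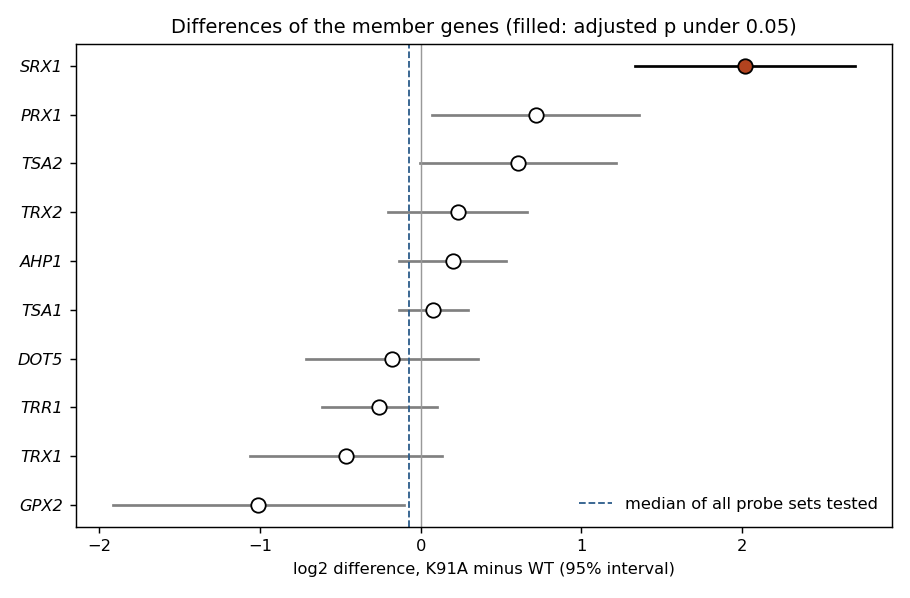
Log2 difference of each member, K91A minus WT, with its 95% interval from limma. A filled point has an adjusted p under 0.05, and the dashed line is the median of all probe sets tested (-0.07). SRX1 alone is filled at 2.02, and the intervals of PRX1 and GPX2 leave out 0 without passing the adjustment.

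**Figure D4:**
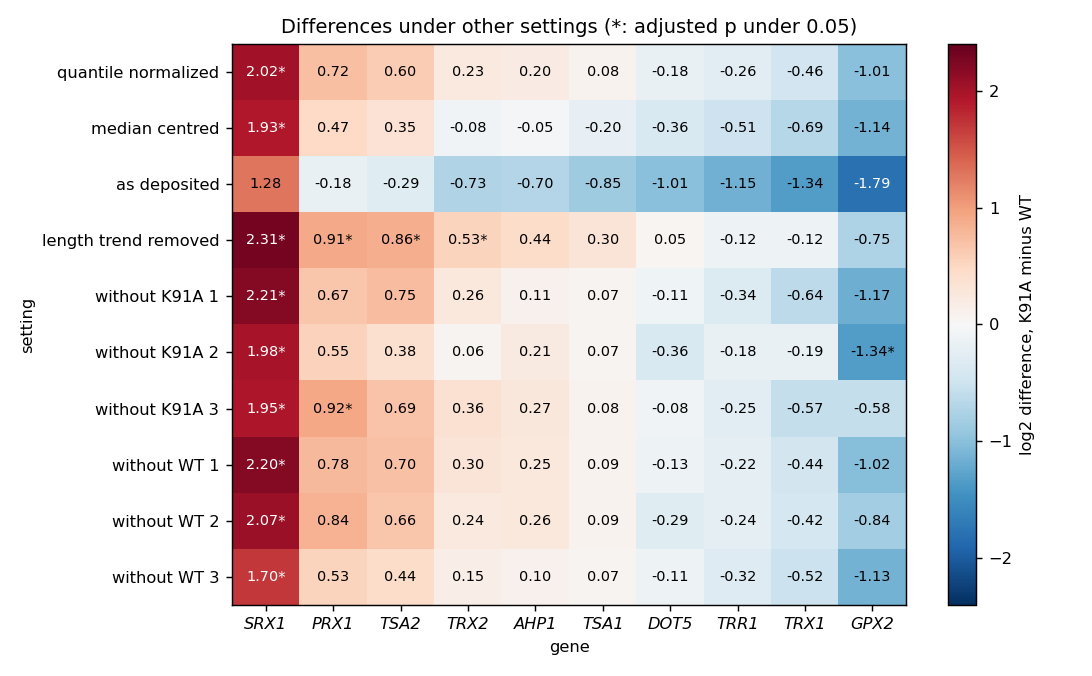
Log2 difference of each member (columns) under other settings (rows), with an asterisk where the adjusted p is under 0.05. SRX1 is above 1.2 in every row shown. On the values as deposited, where the median of all probe sets was -0.82, the other 9 members are below 0.

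The paired duplicates were compared by the change of their within-array difference. TSA2 minus TSA1 was -1.90, -1.20 and -1.82 on K91A 1, 2 and 3, against -1.97, -2.05 and -2.48 on WT 1, 2 and 3. The groups did not overlap, and the change was 0.53 in favour of TSA2 (two-sided exact permutation p = 0.1, 0.1 after adjustment over both pairs, n = 3 each). With 3 arrays in each group any difference without overlap gives this p, and no smaller one can be reached. The groups did not overlap for 51.1% of all single probe sets, and the share over other pairs of probe sets was not computed. TRX2 minus TRX1 was 0.66, 1.98 and 0.57 on K91A 1, 2 and 3, against 0.47, 0.30 and 0.35 on WT 1, 2 and 3. The change was 0.69 (two-sided exact permutation p = 0.1, adjusted 0.1, n = 3 each), and K91A 2 decided its size. Without K91A 2 the changes were 0.31 for TSA2 against TSA1 and 0.24 for TRX2 against TRX1. On the values as deposited they were 0.55 and 0.61.

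Members also differed in how steady they were among replicates. The SD over the K91A arrays was larger than that over the WT arrays for 7 of 10 members, where 68.6% of all probe sets showed this. TRX1 had 0.49 on K91A and 0.12 on WT arrays, and GPX2 had 0.75 and 0.28. SRX1, TSA1 and AHP1 were the members with the smaller spread on K91A arrays. By root mean square distance between centred profiles over the 6 arrays, the most alike pair of members was TSA1 and AHP1 (0.150), followed by AHP1 and TRX2 (0.194). Like TSA1, AHP1 (98.9 to 99.8 percentile) and TRX2 (97.8 to 99.7) ranked near the top on every array. Quantile normalization narrows differences at such ranks, and its share in this likeness was not tested. TSA2 and PRX1, the members with the next highest differences after SRX1, were 0.209 apart.

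Among 5003 other protein-coding genes, the profiles nearest to that of SRX1 by the same distance were those of PLN1, CSR2 and JEN1. PLN1, a lipid droplet protein, was 0.0946 from SRX1, with levels of 12.87, 13.27 and 13.17 on K91A 1, 2 and 3 and of 11.29, 11.32 and 10.57 on WT 1, 2 and 3. As with SRX1, WT 3 was the lowest and K91A 2 the highest array. CSR2, an adaptor of a ubiquitin ligase, was at a distance of 0.121 and JEN1, a lactate transporter, at 0.135. Their differences were 2.05 for PLN1, 2.10 for CSR2 and 1.84 for JEN1, and all 3 passed limma's test. They were picked for their likeness to SRX1, so these calls are a description.

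Related genes outside the members were read from lists of the pathway, which were chosen with earlier results of these data known. In the list of glutathione and glutaredoxin genes, 3 of 13 rose and 2 fell, with a median of -0.18. Over all protein-coding genes tested 15.1% were called higher and 14.4% lower, with a median of -0.09. GPX1, a paralog of GPX2, rose by 1.17 (SE 0.23, adjusted p = 0.0111), in contrast to the value of -1.01 for GPX2. The difference between these paralogs was not tested. GSH1, the first enzyme of glutathione synthesis, rose by 1.75 (SE 0.48, adjusted p = 0.0342), with K91A 1 at 10.75 well below K91A 2 (12.48) and K91A 3 (12.38). The glutaredoxins GRX7 (-1.02, adjusted p = 0.0154) and GRX4 (-0.66, adjusted p = 0.0242) fell. The third increase was GRX2, a glutaredoxin named after its value was seen (0.81, adjusted p = 0.0366), and its call ended without any of the 6 arrays (adjusted p = 0.0520 to 0.0840). The list had 2 genes higher without K91A 1 and 1 without each of the other 5 arrays. The GSH1 call ended without K91A 2 (adjusted p = 0.0807), K91A 3 (0.0713), WT 1 (0.112), WT 2 (0.0783) or WT 3 (0.0753). That of GRX4 ended without K91A 1 (0.0700), WT 1 (0.0981) or WT 2 (0.103), and that of GRX7 without WT 1 (0.0542) or WT 2 (0.0700).

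Of 6 genes for other peroxide and superoxide enzymes, 3 rose and 0 fell (background 15.1% and 14.4%), with a median of 0.60. CTA1, the peroxisomal catalase, had the largest difference of these, 1.96 (SE 0.32, adjusted p = 0.0062). CCS1, the copper chaperone of superoxide dismutase, rose by 1.04 (adjusted p = 0.0086), and SOD2, the mitochondrial superoxide dismutase, by 0.80 (adjusted p = 0.0221). CCP1, the mitochondrial cytochrome c peroxidase, was at 0.29 and did not pass. The SOD2 call ended without K91A 1 (adjusted p = 0.0511), WT 1 (0.0575) or WT 2 (0.0732), and SOD2 was at -0.07 on the values as deposited.

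The list of mitochondrial thioredoxin genes and thioredoxin clients had 2 of 9 genes higher, 0 lower (background 15.1% and 14.4%) and a median of 0.42. With 9 genes, 2 calls are near that background. TRR2, the mitochondrial thioredoxin reductase, rose by 0.86 (SE 0.20, adjusted p = 0.0216), whereas its cytosolic counterpart TRR1 had -0.26. That difference between the reductases was not tested. Ribonucleotide reductase is reduced by thioredoxin, and its subunit gene RNR3 rose by 1.24 (SE 0.24, adjusted p = 0.0108), on a probe set whose identifier marks shared probes. RNR4 (0.42, adjusted p = 0.0689) and RNR2 (0.67, adjusted p = 0.102) did not pass, but both passed without K91A 2 (0.53 and 0.99, adjusted p = 0.0184 and 0.0095) and with the length trend removed (0.51 and 0.72, adjusted p = 0.0311 and 0.0483). The RNR3 call ended without WT 2 (adjusted p = 0.0547), and that of TRR2 without WT 2 (0.0928) or WT 3 (0.0555). On the values as deposited 0 genes of this list were called, with RNR4 at -0.48 and RNR2 at -0.20. RNR1 (-0.23, adjusted p = 0.730) and the mitochondrial thioredoxin TRX3 (0.46, adjusted p = 0.254) did not pass. These 2 genes were named after their values were seen.

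Among regulators of the peroxide response 1 of 10 tested rose and 1 fell, with a median of 0.33. These counts are not more than the background of 15.1% higher and 14.4% lower. YAP1 itself had 0.87 (SE 0.30, adjusted p = 0.0652) and did not pass. TPK2, a catalytic subunit of protein kinase A, rose by 1.08 (adjusted p = 0.0096), and BCY1, the regulatory subunit of that kinase, was at 0.43 (adjusted p = 0.109). YPD1, the phosphorelay protein upstream of Skn7, fell by 0.77 (adjusted p = 0.0316), a call that ended without K91A 1 (0.0766), WT 1 (0.0945), WT 2 (0.128) or WT 3 (0.0647).

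NADPH, the electron source of TRR1, comes largely from the pentose phosphate pathway. Of 17 tested genes of NADPH supply, 6 rose and 1 fell (background 15.1% and 14.4%), with a median of 0.41. ZWF1, the glucose-6-phosphate dehydrogenase that opens the pathway, was at 13.44, 13.85 and 13.53 on K91A 1, 2 and 3 and at 11.19, 11.31 and 11.98 on WT 1, 2 and 3. Its groups lay more than 1 unit apart and the difference was 2.11 (SE 0.26, adjusted p = 0.0030). GND2, a minor 6-phosphogluconate dehydrogenase, rose by 2.20 (adjusted p = 0.0037), and IDP2, a cytosolic NADP-dependent isocitrate dehydrogenase, by 1.74 (adjusted p = 0.0092). RKI1, the ribose-5-phosphate isomerase of the same pathway, fell by 1.79 (SE 0.28, adjusted p = 0.0053). These 4 calls held without each array in turn. On the values as deposited 0 genes of this list were called higher and 1 lower. There ZWF1 was at 1.28 (adjusted p = 0.149), GND2 at 1.49 (0.125) and IDP2 at 0.94 (0.313). Of the 17 genes 10 had differences above 0 and 7 below. Those below included GND1 (-0.70, adjusted p = 0.133) and SOL3 (-0.56, adjusted p = 0.0654), named after their values were seen.

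The 17 tested genes of the list of other Yap1 targets had 10 higher, 0 lower and a median of 1.67 (background 15.1%, 14.4% and -0.09). The 10 members had 1 higher and a median of 0.14. The difference between these lists was not tested. Both lists were chosen with earlier results of these data known, so their counts are a description. GTT2 (3.30), OSI1 (4.20), GRE2 (1.67) and FLR1 (2.38), enzymes of detoxification and a drug transporter, had the smallest p of this list. All 4 held without each array in turn. On the values as deposited they were at 2.52, 3.49, 0.90 and 1.54. There GRE2 (adjusted p = 0.336) and FLR1 (adjusted p = 0.0735) did not pass. In all 6 lists together 25 of 72 tested genes rose and 4 fell (background 15.1% and 14.4%). Of these 29 calls, 17 held without each array in turn. On the values as deposited 4 rose and 2 fell. The actin 5' to 3' ratio differed between the same arrays.

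**Figure D5:**
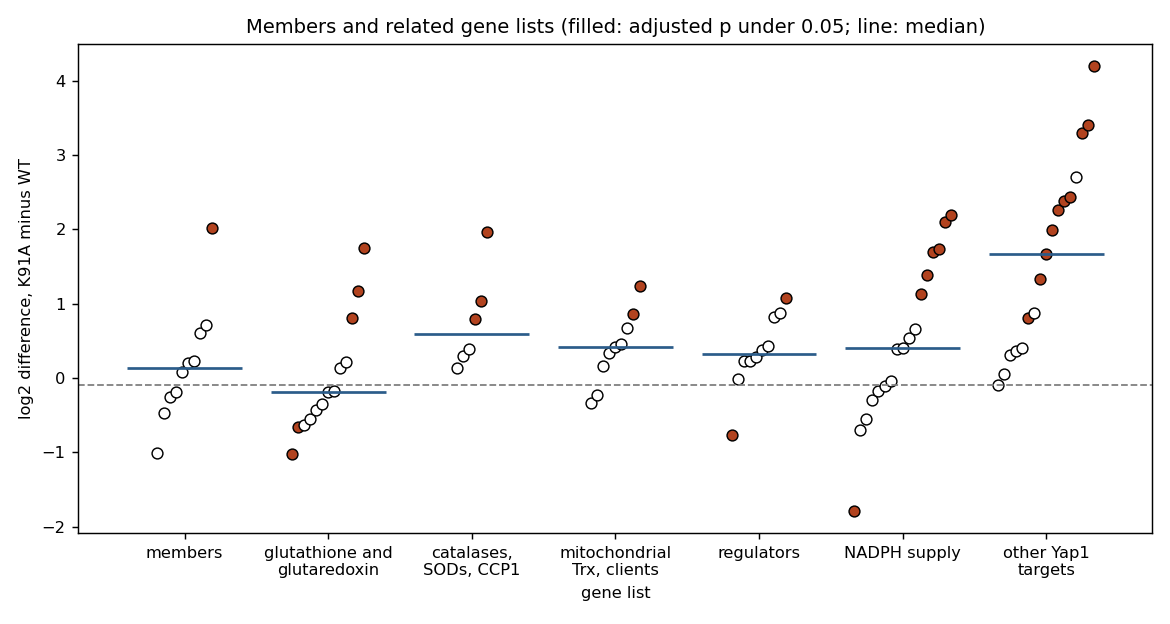
Log2 difference, K91A minus WT, of the members and of each gene of the 6 related lists, filled where the adjusted p is under 0.05, with a blue line at the median of each list and a dashed line at the median of all protein-coding genes tested (-0.09). The other Yap1 targets reach 4.20, while 1 member, SRX1 at 2.02, is filled. The lists were chosen with earlier results of these data known.

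The genes next to the members on their chromosomes were also examined, by gene order alone. Of 20 adjacent protein-coding genes, 18 had a tested probe set, of which 4 were higher and 6 lower, where 29.5% of all protein-coding genes were called. There were 2 higher and 1 lower without WT 1 or WT 2, and 3 of each without WT 3. Without K91A 1 there were 2 higher and 4 lower. On the values as deposited 0 of the 18 were called higher and 1 lower. The neighbours are named for the member with a call, the member with the lowest difference and TSA2, chosen after their values were seen. Beside SRX1 on chromosome XI, CYT2 (0.77, adjusted p = 0.0432) and MDH1 (1.08, adjusted p = 0.0037), the mitochondrial malate dehydrogenase, were both higher. Beside GPX2 on chromosome II, ALG7 (-1.03, adjusted p = 0.0242), an enzyme of protein glycosylation, and ISW1 (-1.01, adjusted p = 0.0168), a chromatin remodelling ATPase, were both lower. Neighbours did not always share a member's direction. Beside TSA2, whose difference was 0.60, PPN1 (-0.57, adjusted p = 0.0397) and GUK1 (-0.62, adjusted p = 0.0225) were both lower. The PPN1 call held in 2 of the 6 fits without 1 array, and that of GUK1 in 4. The MDH1 call held without each array in turn, and the CYT2 call ended without any of the 6 arrays (adjusted p = 0.0597 to 0.0937). The ALG7 call ended without K91A 1 (0.0531), WT 1 (0.0836), WT 2 (0.0795) or WT 3 (0.0631), and that of ISW1 without WT 1 (0.0723) or WT 2 (0.0813).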

How the data were processed

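Transcript levels were measured on 6 oligonucleotide arrays. In the deposited table each probe set has 1 linear intensity on each array. The authors' software, background correction and scaling of these intensities are not given in the sources available. Gene names came from the platform annotation and were brought up to date through Entrez identifiers in a RefSeq table (assembly R64), which also gave coding length and gene order. Of the probe sets other than the 60 controls, 6504 had 1 symbol. Values were taken as log2(intensity + 16) and quantile normalized. Excluded were 33 probe sets that lacked 2 values in some group and the dimmest 25% (2311). Differences were tested with limma 3.58.1 (R 4.3.3), using lmFit and moderated variances that follow the mean level, with both groups in 1 fit and a threshold of 0.05. A gene with several probe sets was read from its brightest one. Fold changes on this scale understate changes of dim probe sets. Paralogs and the actin ratio were compared with exact permutation tests.

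Samples were grouped by title. The members and gene lists were chosen with earlier results of these data known. Named were all members, up to 4 genes of the smallest p in each list, called genes against their list's direction, and the 3 nearest profiles of a called member. Further genes were named after their values were seen, as marked where they appear. From the lists, HBN1 was not analysed here, and TPK3 and STB5 were left out as dim. Alternatives were the values as deposited, median centring, a pseudocount of 1 or 64, no filter or the dimmer 50% left out, no trend, array weights, the replicate number as a block, K91A 3 as WT, each array left out, the coding length trend removed (protein-coding probe sets alone) and, chosen after seeing the data, WT 1 and WT 2 averaged. Sequences of the genes were not used here.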

Additional observations from a re-analysis of the deposited data

How the results depend on the processing

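SRX1 stayed above 0 under all 18 alternatives and passed in 16, from 1.28 to 2.31. It did not pass on the values as deposited (1.28) or with K91A 3 counted as WT (1.46), and was at 1.70 to 2.21 without each array in turn. As deposited, the signs of TSA1 (-0.85), TRX2 (-0.73), AHP1 (-0.70), TSA2 (-0.29) and PRX1 (-0.18) turned, and with median centring those of TSA1 (-0.20), TRX2 (-0.082) and AHP1 (-0.050). DOT5 turned with K91A 3 as WT (0.014) and with the length trend removed (0.049), where TSA2 (0.86), PRX1 (0.91) and TRX2 (0.53) passed. TRX1 and TRR1 passed in none of the 18 and kept their sign. Leaving out each array gave 0.53 to 0.92 for PRX1 and -1.34 to -0.58 for GPX2, and GPX2 passed with array weights (-1.16). Member calls numbered 1 higher and 0 lower. They were 0 higher as deposited (3 members at an unadjusted p under 0.05, all lower), 0 with K91A 3 as WT (1 unadjusted), 4 with the length trend removed and 1 to 2 without each array, and 1 was lower with array weights and 0 to 1 without each array. Genes of the 6 related lists called higher were 25, but 4 as deposited, 0 with K91A 3 as WT (15 unadjusted, either direction) and 17 to 25 without each array. Those called lower were 4, but 2 as deposited or with the length trend removed, 7 with array weights, 0 with K91A 3 as WT, 1 with WT 1 and WT 2 averaged and 1 to 5 without each array. Probe sets called were 2091 (1068 higher, 1023 lower), 703 as deposited (32 and 671), 1372 with the dimmer 50% left out (686 higher), 0 with K91A 3 as WT (1056 unadjusted), 888 with WT 1 and WT 2 averaged (507 and 381) and 841 to 2300 without each array (479 to 1139 higher, 362 to 1161 lower), the lowest counts being without WT 2. Array weights gave 1576 lower. With the length trend removed 772 were higher and 749 lower of 4736 tested. Both paralog changes kept their sign in all settings tried, at 0.31 to 0.67 for TSA2 against TSA1 and 0.24 to 0.93 for TRX2 against TRX1 without each array. The settings that leave fewer arrays or probe sets also test with less, and otherwise the cause was not tested.

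Between arrays of the same replicate number, deviations from the group means correlated at 0.17, -0.15 and -0.0052 for numbers 1, 2 and 3. Such deviations were not compared between arrays of different numbers, so these values do not settle whether the numbers pair the arrays. With the replicate block 1535 probe sets were called, 2 members were higher, SRX1 (2.02, adjusted p = 0.0180) and PRX1 (0.72, adjusted p = 0.0483), and 2 genes of the related lists were lower. Signal over background is unknown without detection calls, and the 3 arrays of each group limit the precision.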
